A study of Rattus norvegicus with 192 samples.

Results

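The genes described here encode the protein subunits of the oxidative phosphorylation machinery of the inner mitochondrial membrane, measured in rat hepatocytes exposed to 29 chemicals. They were taken by symbol, as all probe rows whose gene name begins with Ndufa, Ndufb, Ndufc, Ndufs or Ndufv and a digit, with Uqcr, with Cox4 to Cox8 and a letter from a to c, or with Atp5, together with Sdha, Sdhb, Sdhc and Sdhd. This gave 80 of 22253 probe rows, carrying 77 symbols. The rule uses no measured value, but the members were chosen with earlier results of these data known. By complex there were 36 probes for complex I, 4 for complex II, 7 for complex III, 19 for complex IV and 14 for complex V.

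Electrons from NADH enter the respiratory chain at complex I and those from succinate at complex II, and they pass through complex III and cytochrome c to complex IV, where oxygen is reduced. Complexes I, III and IV pump protons across the inner membrane, and complex V, the ATP synthase, makes ATP as the protons return. Hepatocytes draw on this chain for gluconeogenesis and the urea cycle, and most of its subunits are encoded by nuclear genes, the only kind considered here.

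The cells were primary hepatocytes from male rats, plated on collagen and exposed for 24 h, and all of them, controls included, received 0.1% DMSO as the solvent or DMSO alone. Expression was measured by TempO-Seq, a targeted assay that counts ligated pairs of detector oligonucleotides, with 1 library for each of 6 doses of each chemical (174 libraries). For 16 chemicals the series began at 100 µM and for 13 at 33.3 µM, and went down through 33.3, 11.1, 3.7, 1.2, 0.4 and 0.14 µM over 6 doses. The 9 reference chemicals had 1 library each, namely 17beta-estradiol, dexamethasone, sulforaphane and testosterone at 10 µM, GW 4046 and TCPOBOP at 1.5 µM, Pregnenolone 16alpha carbinonitrile and WY-14,643 at 15 µM, and oltipraz at 30 µM. The controls were 8 of the 9 DMSO libraries, replicates 2 to 9, over 3 plates. The labels do not give the age or strain of the animals, nor whether each well was its own culture. The p-values therefore reflect variation among these libraries alone, and that variation may be technical.

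Libraries held 582071 to 11249014 counts (median 5745085), and the 8 controls 2876741 to 8513985. Values are CPM, a library's counts scaled to a common total, which are not scaled to length, so levels are compared between libraries and not between genes. The summed CPM of 10 hepatocyte markers ran from 36660 to 59738 in the controls, and none of the 10 was at 0. Over the controls, 6 macrophage markers summed to 44.5 to 80.4 CPM, 6 endothelial markers to 9.39 to 17.7 CPM, 5 stellate markers to 2.13 to 5.25 CPM with Col1a1 at 0, and 5 bile duct markers to 16.0 to 29.2 CPM with Krt7 at 0. DMSO replicate 1, on plate 1, stood apart from the other 8 DMSO libraries: 47 of 69 tested members lay below the whole range of replicates 2 to 9, against 57.5% of all tested probes, and 12 lay above it, against 19.4%. Sdhd, a membrane anchor of complex II, had 121 CPM in replicate 1 and 2.43 to 4.76 CPM in the other 8. Ndufb4, an accessory subunit of complex I, had 29.5 CPM in replicate 1 and 262 to 310 CPM in the other 8. DMSO replicate 5, on plate 2, had the lowest control values of Cox5a (104 CPM), Cox7b (224 CPM) and Sdhc (140.4 CPM) and the highest of Cox6a1 (2159 CPM). Counts of calls with replicate 1 added to the controls, and without replicate 5, are given beside the chemicals with called members.

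Promoters of the members carry binding motifs of factors known to regulate respiratory genes, and 4 of them are shown because their genes were among those with a called dose trend or a called difference below. RefSeq promoters of assembly GRCr8, each 250 bases before to 50 bases after the gene's start, were matched to 69 of the 77 symbols. Each stretch is written 5′ to 3′ on the strand of the gene and ends at or before the start of transcription, and the capitals mark the motif. Motifs were searched on both strands as the letters GCGCA and GCGC with any 1 base between them for NRF1, CCGGAAG for GABP, AAGATGG for YY1, TNAAGGTCA for ERR, TGACGTCA for the cyclic AMP response element and TATAAA for the TATA box.
Ndufa11 (NRF1 motif, chr9:1637457-1637566, plus strand): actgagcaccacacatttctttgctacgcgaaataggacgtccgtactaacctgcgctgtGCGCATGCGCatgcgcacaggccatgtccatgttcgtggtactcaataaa
Ndufb2 (cyclic AMP response element, chr4:69334218-69334306, plus strand): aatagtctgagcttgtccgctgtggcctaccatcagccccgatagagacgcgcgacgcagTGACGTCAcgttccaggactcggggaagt
Ndufa10 (cyclic AMP response element, chr9:100489265-100489353, minus strand): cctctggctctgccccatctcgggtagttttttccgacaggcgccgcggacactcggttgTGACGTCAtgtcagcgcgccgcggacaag
Uqcrq (GABP motif, chr10:38089979-38090060, minus strand): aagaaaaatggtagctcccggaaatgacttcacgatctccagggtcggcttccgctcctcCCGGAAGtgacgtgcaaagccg

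In the Ndufa11 stretch a further NRF1 match overlaps the one in capitals. In both Ndufb2 and Ndufa10 the cyclic AMP response element begins 29 bases before the start. Among the 69 member promoters the NRF1 letters occurred in 18.8%, against 10.6% of the promoters of all tested genes and 4.25% of all 33469 promoters. The GABP letters occurred in 24.6% of member promoters, 18.5% of tested genes and 8.75% of all, and the YY1 letters in 24.6%, 8.64% and 7.01%. The ERR letters were in 3 member promoters (4.35%), those of Atp5g3, Ndufb4 and Sdhd, against 0.674% of tested genes and 1.20% of all promoters. The cyclic AMP response element was in 4 member promoters (5.80%), those of Cox8a, Ndufa10, Ndufb2 and Sdhb, against 3.10% and 1.83%, and the TATA letters were in 7.25%, 6.95% and 14.2%. Mean GC content was 56.0% in member promoters, 60.4% in tested genes and 52.7% in all. A match describes the letters only, and binding was not measured.

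Of the 80 probes, 69 were detected well enough to be tested, with at least 1.741 CPM in at least 6 libraries. These were 34 of 36 for complex I, all 4 for complex II, 6 of 7 for complex III, 11 of 19 for complex IV and all 14 for complex V. The untested probes included the subunit forms used in muscle and testis. Cox6a2, Cox8b, Cox7b2 and Cox8c had 0 counts in all 8 controls, and Cox7a1 had at most 0.514 CPM and Cox6b2 at most 0.771 CPM. Summed CPM of 3 muscle markers was at most 0.189 in the controls. The counterparts of these forms in liver were present: Cox6a1 had a mean of 1539 ± 286 CPM (SD, n = 8), Cox7a2 523 ± 70.9 CPM, Cox8a 150 ± 34.6 CPM and Cox6b1 195 ± 10.2 CPM. Uqcrc2, a core protein of complex III, and Ndufa13 also fell under the limit, at 0.480 and 0.0903 CPM. Where 2 probes carry 1 symbol they differed widely, as for Ndufa12, with means of 138 and 1.01 CPM. For Cox6c the means were 576 and 0 CPM, and the other Cox6c values below are those of the first probe. Atp5s, Atp5sl and Cox7a2l are kept by the choice by symbol, although they are now known as assembly or associated factors and not as subunits.

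The catalytic and core subunits gave the following means over the 8 controls. In complex I, Ndufv1, which binds NADH, had 6.91 ± 2.41 CPM (SD, n = 8) and Ndufs1, an iron-sulfur subunit, 17.5 ± 3.23 CPM. In complex II, the flavoprotein Sdha had 282 ± 43.4 CPM, the iron-sulfur protein Sdhb 1122 ± 87.4 CPM, and the anchors Sdhc and Sdhd 227 ± 39.8 and 4.004 ± 0.778 CPM. In complex III, Uqcrc1 had 179.9 ± 44.4 CPM and the Rieske protein Uqcrfs1 100.5 ± 42.2 CPM. Complex IV was represented by Cox5a at 227 ± 55.9 CPM, Cox5b at 1.44 ± 0.674 CPM and Ndufa4, once assigned to complex I, at 239 ± 51.7 CPM. The catalytic subunits of complex V, Atp5a1 and Atp5b, had 765 ± 68.5 and 1724 ± 88.4 CPM. The 3 genes for the c-ring of the ATP synthase, Atp5g1, Atp5g2 and Atp5g3, had 14.4 ± 3.15, 70.4 ± 23.5 and 84.2 ± 8.01 CPM. These means describe probes, which differ in how well they capture their transcripts.

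The members varied about as much between controls as other probes did, with a median SD of log2 CPM of 0.29 over the 69 members and 0.33 over all 11055 tested probes. The steadiest were Ndufb4 (SD 0.08), Cox6b1 (0.10), Ndufc1 (0.10), Atp5g3 (0.11) and Atp5o (0.11). The most variable was Atp5l, subunit g of the ATP synthase (SD 1.46), which had 0.348 CPM in DMSO replicate 5 and 4.82 to 14.03 CPM in the other 7. It was followed by Ndufv3 (0.70), Ndufa10l1 (0.68), Ndufa3 (0.66) and Cox5b (0.65), of which only Ndufa3 had a mean above 4 CPM. No member was called between the 3 plates of the controls by edgeR's quasi-likelihood test (0 of 69 at an adjusted p under 0.05, and 0.0% of all tested probes). At an unadjusted p under 0.05 there were 2 (2.90%, against 4.27% of all probes). With 2, 3 and 3 libraries this does not show that the plates are alike. The members' median log2 ratio to the control mean was 0.083 to 0.103 on plate 1, -0.030 to 0.061 on plate 2 and -0.060 to -0.013 on plate 3.

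Together the 80 probes took 1.86% to 1.97% of all counts in the 8 controls (mean 1.91% ± 0.0476, SD), and 1.28% in DMSO replicate 1. Complex V contributed 0.608% to 0.664%, complex IV 0.477% to 0.561%, complex I 0.475% to 0.555%, complex II 0.146% to 0.182% and complex III 0.0597% to 0.0790%. Over the 174 dose libraries the share ran from 1.36% to 2.18% with a median of 1.83%. It lay below the range of the controls in 114 dose libraries, within it in 55 and above it in 5. At the highest dose 24 of 29 chemicals were below the range, and at the lowest dose 11 of 29. On plate 1 the share was below both of its controls in 83 of 87 dose libraries, on plate 2 below all 3 in 54 of 81, and on plate 3 in 2 of 6. Plate 1 has 2 controls of the 8, so its comparison rests on few libraries.

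**Figure D1:**
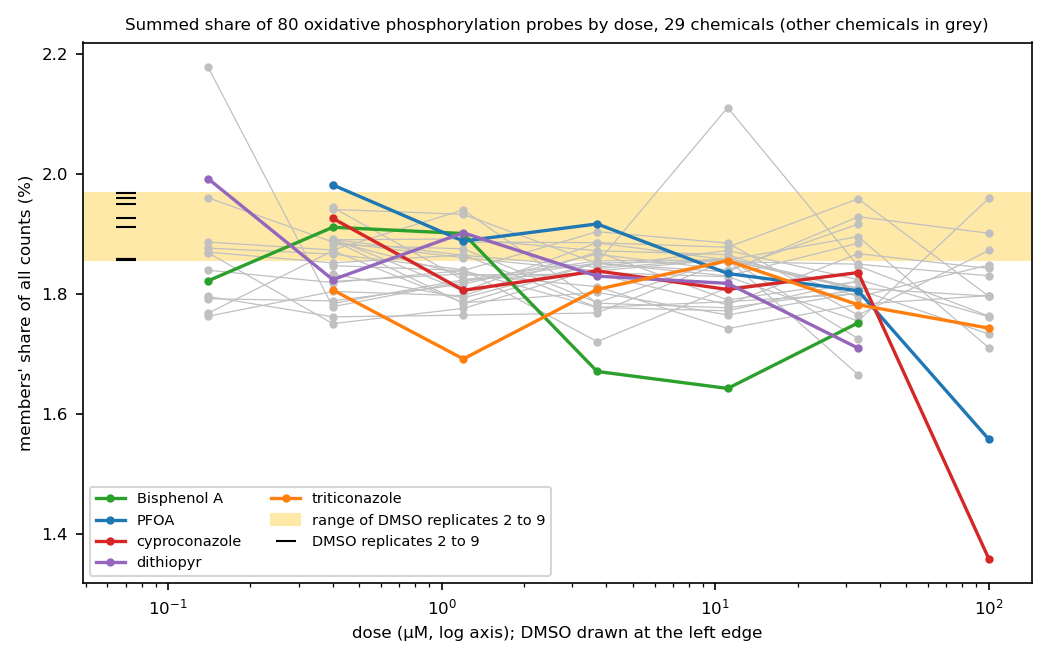
Share of all counts taken by the 80 probes (percent, vertical axis) against dose (µM, log axis) for 29 chemicals, 1 library per point, with 5 chemicals in colour and the 8 DMSO libraries as short bars and a band. The band spans 1.86% to 1.97%, most points lie under it, and the lowest point is cyproconazole at 100 µM with 1.36%.

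The lowest share, 1.36%, belonged to cyproconazole at 100 µM, a triazole fungicide, in a library of 1340300 counts. PFOA, a perfluorinated carboxylic acid, followed at 100 µM with 1.56%, and Bisphenol A at 11.1 µM and 3.7 µM with 1.64% and 1.67%. The highest shares were 2.18% with etoxazole at 0.14 µM and 2.11% with dimethenamid at 11.1 µM, neither at the highest dose of its series. With PFOA at 100 µM the complex II share was 0.251%, above all controls, while complex V was at 0.355% and complex IV at 0.347%, below all of them. With cyproconazole at 100 µM complex I was at 0.349% and complex V at 0.375%, both below all controls, and complex II was at 0.168%, within their range.

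Dose trends were tested with edgeR's quasi-likelihood test, 1 fit per chemical over all 11055 probes, and each is reported as the log2 difference from DMSO that the fit gives for 33.3 µM (± SE). A member is called where its Benjamini-Hochberg adjusted p is under 0.05. The 29 series share their controls. Plate was a factor in each fit, so the fitted change is set by the controls on the chemical's own plate or plates, and not by all 8. Of 2001 tests of members, 18 were called lower and 2 higher, 0.90% and 0.0999% of the tests, against 0.713% and 0.95% over all probes. The calls came from 4 chemicals, dithiopyr, cyproconazole, triticonazole and imazalil, and concerned 17 members, and 52 members were called with none. In the other 25 series 0 members were called, against 0.27% of all probes higher and 0.233% lower. In those series DESeq2 called 0 to 8 members, and 0 to 24 had an unadjusted p under 0.05, against 2.47% to 25.5% of all probes. Both maxima were with alachlor. There DESeq2 called 3.04% of all probes higher and 2.20% lower, and 34.8% of members and 25.5% of all probes had an unadjusted p under 0.05. The fitted change of the members had a median below 0 in 25 of 29 series and below that of all probes in 24.

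**Figure D2:**
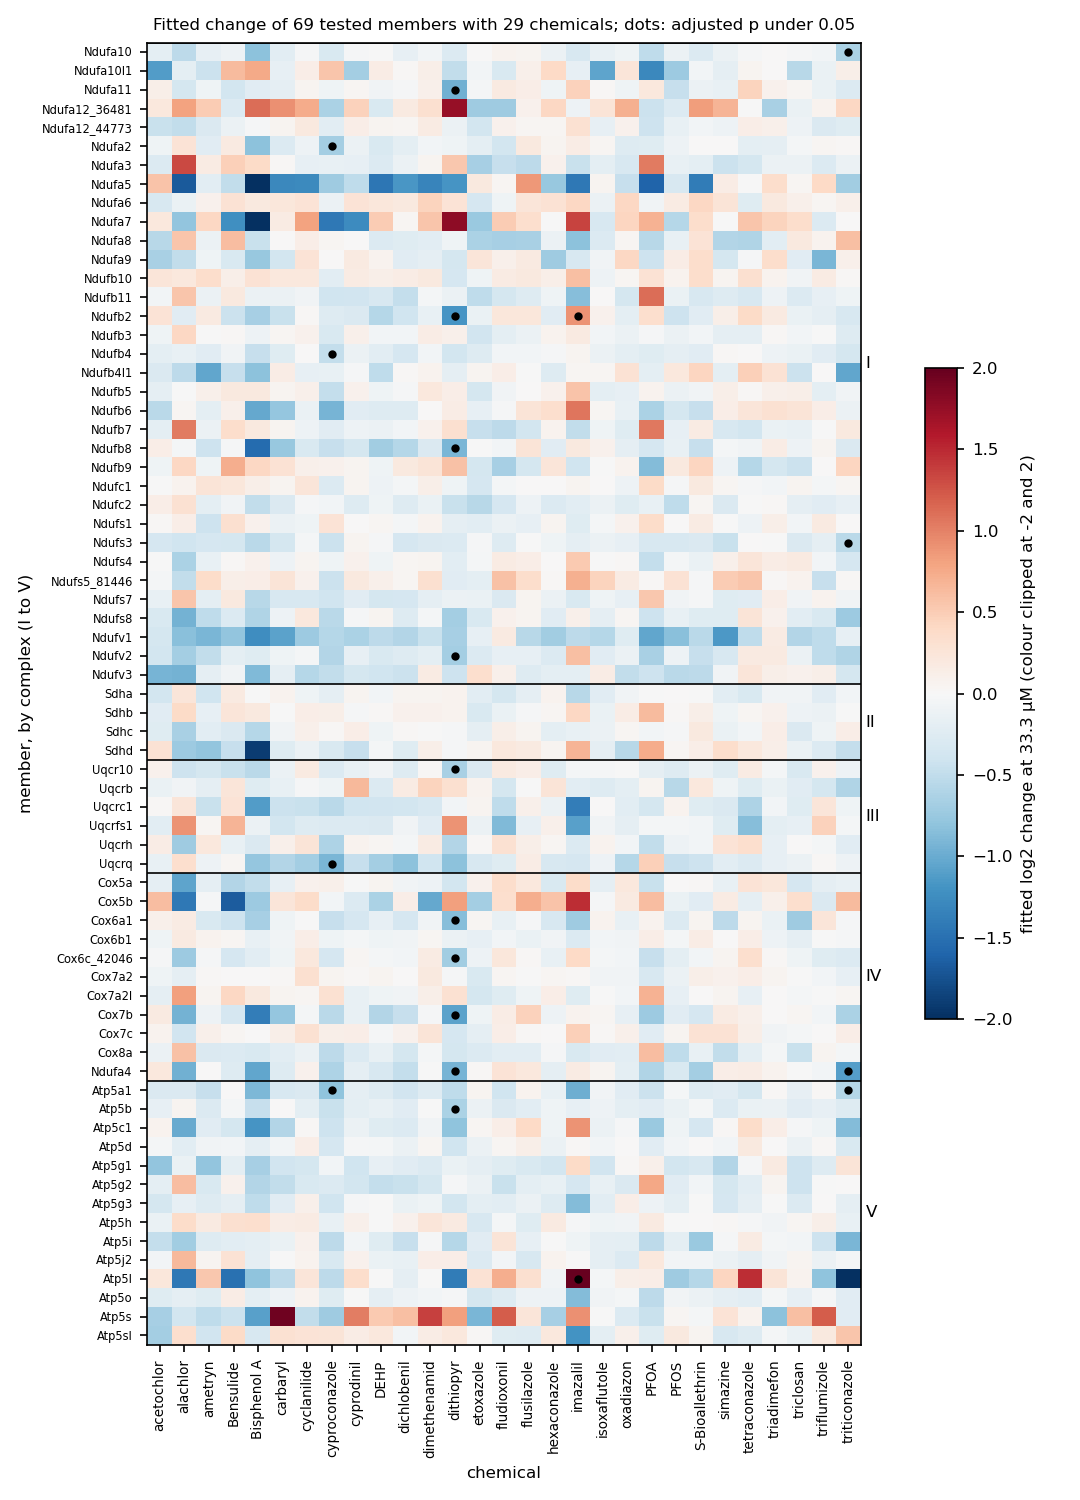
Fitted log2 change at 33.3 µM (colour, clipped at -2 and 2) of the 69 tested members (rows, by complex I to V) with each of 29 chemicals (columns), with a dot where the adjusted p was under 0.05. The dots number 20, of which 10 are in the dithiopyr column, and the widest range of colours is in rows such as Ndufa5, Ndufa7 and Atp5l.

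Dithiopyr, a pyridine herbicide, had the most called members: 10 of 69 fell with dose and 0 rose, against 6.74% of all tested probes lower and 6.26% higher. They were spread over 4 complexes, with 4 in complex I (Ndufb2, Ndufa11, Ndufb8, Ndufv2), 1 in complex III (Uqcr10), 4 in complex IV (Cox7b, Ndufa4, Cox6a1, Cox6c) and 1 in complex V (Atp5b). None was in complex II, where 4 were tested. The median over the members was -0.18, against -0.01 over all probes, and under library totals -0.06 against 0.11.

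Ndufb2, an accessory subunit of complex I whose promoter is shown above, had 125, 159, 82.4, 93.1, 86.1 and 56.7 CPM at 0.14, 0.4, 1.2, 3.7, 11.1 and 33.3 µM. The 8 controls ran from 92.5 to 129 CPM with a median of 113. The 0.4 µM value was above all controls and those at 1.2, 11.1 and 33.3 µM were below them, with a fitted change of -1.18 ± 0.24 (SE, adjusted p = 0.00572, edgeR). Ndufa11, a membrane subunit of complex I, had 36.0, 36.4, 33.8, 24.5, 30.7 and 14.6 CPM in the same order, against 20.5 to 33.2 CPM in the controls. Only its highest dose was below the controls (-0.96 ± 0.29, adjusted p = 0.0410, edgeR).

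Ndufa4, of complex IV, fell from 309 CPM at 0.14 µM through 265, 233, 231 and 222 to 153 CPM at 33.3 µM, each dose below the one before. The controls ran from 160.9 to 299.6 CPM with a median of 259, so that only the highest dose was below all of them (-0.94 ± 0.23, adjusted p = 0.0165, edgeR). Cox7b had 539, 363, 318, 459, 399 and 174 CPM, against 224 to 516 CPM in the controls, where the lowest value is that of DMSO replicate 5 (-1.06 ± 0.34, adjusted p = 0.0486). Atp5b, the catalytic beta subunit of the ATP synthase, had 1472, 1717, 1553, 1531, 1450 and 1081 CPM, against 1647 to 1904 CPM in the controls. All its doses but 0.4 µM were below the controls, and the highest dose was lowest (-0.63 ± 0.17, adjusted p = 0.0232).

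The other 5 had fitted changes from -0.92 (Ndufb8) to -0.64 (Uqcr10) and adjusted p up to 0.0492 (Cox6a1). Uqcr10 was the only one of the 10 whose lowest value was not at the highest dose, with 112 CPM at 33.3 µM and 101 CPM at 11.1 µM. Of the members not called, Ndufa5 was at 14.9 CPM at 33.3 µM, against 87.3 to 181 CPM in the controls, and Uqcrb, a complex III subunit, was at 16.5 CPM, above the 6.76 to 11.3 CPM of the controls. At 33.3 µM, 16 of 69 members lay below all controls, against 22.9% of all tested probes, and 14 lay above, against 26.9%.

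**Figure D3:**
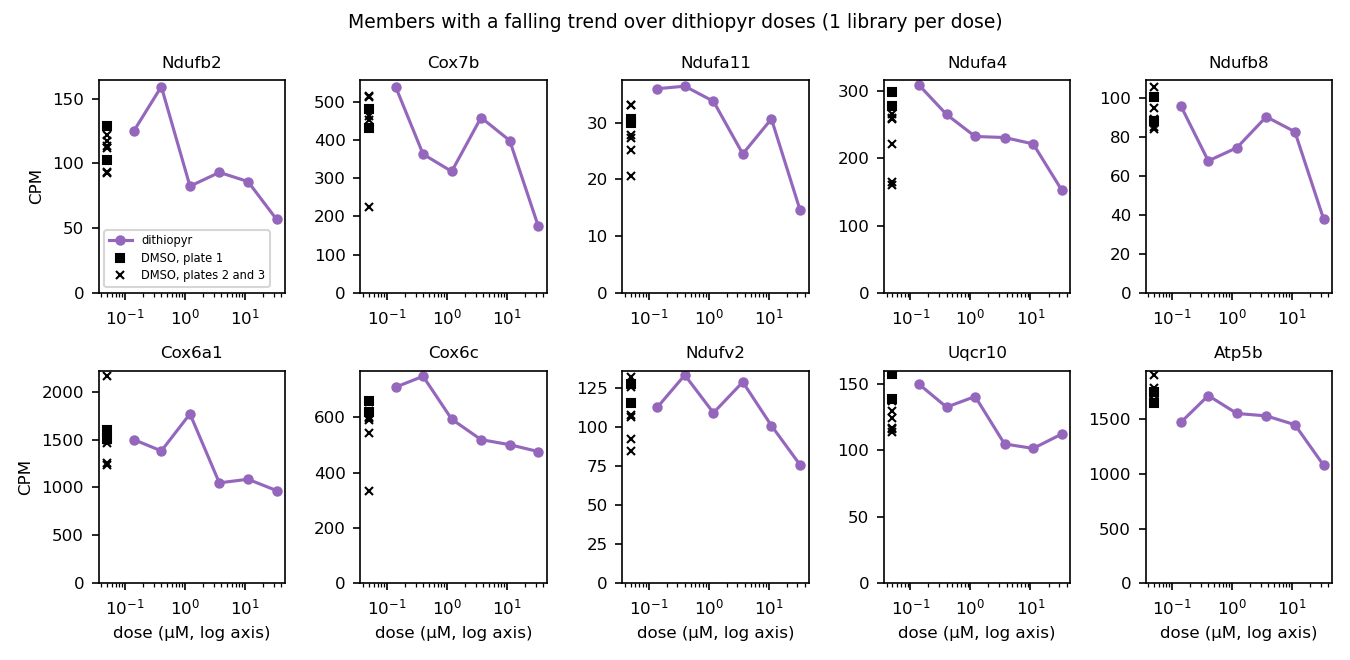
CPM (vertical axes, from 0) against dithiopyr dose (µM, log axes) for the 10 called members, 1 library per dose, with the 8 DMSO libraries at the left edge of each panel (squares for plate 1, crosses for plates 2 and 3). In 9 of the 10 panels the 33.3 µM point is the lowest of the series, for Ndufa11 at 14.6 CPM, and in Uqcr10 the lowest is 11.1 µM.

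Markers of hepatocytes moved with these members. In the dithiopyr trend 6 of 10 hepatocyte markers fell, among them Cps1, the first enzyme of the urea cycle, by 4.04 and Tf, transferrin, by 2.17, with Serpina1 at -0.84 and Fgb at -0.95. The 10 markers summed to 17508 CPM at 33.3 µM, against 36660 to 59738 in the controls, and 2 of 5 tested macrophage markers fell (Clec4f by 1.24 and Csf1r by 1.71). Fewer cells of a type and less RNA per cell cannot be told apart in such libraries, and the part of these markers in the members' trend was not tested. The members' calls rested on the highest dose: without the 33.3 µM library 0 were lower, and without each of the other doses 3 to 8. Added DMSO replicate 1 left 0, a dose score by rank left 0, and leaving out DMSO replicate 3, 8 or 9 left 5 each. A fit without the plate left 5, library totals as the scaling left 4, and 1 model over all series left 2. DESeq2 called 14 and leaving out DMSO replicate 5 gave 14. Of all probes, 0.308% were lower without the 33.3 µM library, 1.71% with DMSO replicate 1 and 1.65% by rank. The share was 5.69% without the plate, 4.94% with library totals and 6.29% in 1 model. It was 9.45% by DESeq2 and 10.1% without DMSO replicate 5.

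With cyproconazole 4 of 69 members fell with dose and 0 rose, against 3.10% of all probes lower and 5.83% higher. They were Uqcrq, a small subunit of complex III, Atp5a1, the alpha subunit of the ATP synthase, and the complex I subunits Ndufa2 and Ndufb4. Uqcrq had 74.0, 58.8, 54.9, 55.4, 61.3 and 36.6 CPM from 0.4 to 100 µM, against 72.2 to 138 CPM in the controls. Each dose above 0.4 µM was below all controls (-0.91 ± 0.25, adjusted p = 0.0334, edgeR). Atp5a1 had 657, 706, 618, 661, 622 and 264 CPM, against 676 to 880.5 CPM in the controls, with the 100 µM library far from the rest (-0.80 ± 0.19, adjusted p = 0.0203). Ndufb4, the steadiest member in the controls at 262 to 310 CPM, had 285, 256, 240, 262, 208 and 167 CPM (-0.47 ± 0.13, adjusted p = 0.0334), and Ndufa2 was at -0.68.

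In the same series 4 of 10 hepatocyte markers fell (Cps1 by 1.603, Tf by 1.41, Apoa2 by 0.68 and Ahsg by 0.65). The mitochondrial chaperone Hspa9 rose by 0.78 and Nrf1, a regulator of respiratory genes, by 0.82. The summed hepatocyte markers were at 21865 CPM at 100 µM, below all controls. In that library the endothelial markers summed to 29.1 CPM and the stellate markers to 16.4 CPM, both above all controls, although 0 of the 5 tested among them were called in the trend, and the part of these values in the members' trend was not tested. Without the 100 µM library 1 member was called, with DMSO replicate 1 added 0, and without DMSO replicate 5 10 were lower. Of all probes 0.461%, 0.262% and 4.92% were lower, in the same order.

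With triticonazole, also a triazole fungicide, 4 members fell and 0 rose, against 2.14% of all probes lower and 1.04% higher. Ndufa4 had 217, 71.7, 156, 119, 98.9 and 89.8 CPM from 0.4 to 100 µM, against 160.9 to 299.6 CPM in the controls. All doses above 0.4 µM were below all controls, the lowest of them at 1.2 µM (-1.09 ± 0.26, adjusted p = 0.0374, edgeR). Atp5a1 had 657, 553, 678, 624.9, 536 and 491 CPM, of which only the 3.7 µM value was within the range of the controls (-0.58 ± 0.12, adjusted p = 0.0240). Ndufa10, of complex I, fell by 0.63 and Ndufs3, a core subunit of complex I, by 0.53. Hepatocyte markers fell here too, 4 of 10, with Serpina1 at -0.70 and Cps1 at -1.97. The bile duct marker Epcam fell by 0.95 and the macrophage marker Cd163 rose by 1.04. At 100 µM the hepatocyte markers summed to 33074 CPM and the bile duct markers to 11.6 CPM, both below all controls, and the macrophage markers to 95.8 CPM, above them, and the part of these values in the result was not tested. These calls were lost without DMSO replicate 4 (0 lower), without DMSO replicate 6 (0), without the highest dose (0) and with DMSO replicate 1 added (0), and 1 was left without DMSO replicate 8 or with library totals as the scaling. Without DMSO replicate 5, 8 were lower, against 3.59% of all probes. Of all probes 0.136% were lower without DMSO replicate 4, 0.145% without replicate 6 and 0% without the highest dose. With DMSO replicate 1 added 0.00905% were lower, without replicate 8 0.968% and with library totals 1.47%.

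Imazalil, an imidazole fungicide, was the only one of the 29 dose series with called members that rose, 2 of 69 (2.90%). Of all probes 7.68% were higher and 2.87% lower, so members were called higher less often than all probes. Atp5l had 8.42, 8.27, 9.66, 18.1, 6.64 and 59.3 CPM from 0.14 to 33.3 µM, against 0.348 to 14.03 CPM in the controls (2.41 ± 0.67, adjusted p = 0.0363, edgeR). Ndufb2 had 98.6, 73.5, 107, 114, 94.7 and 208 CPM, against 92.5 to 129 CPM (0.90 ± 0.27, adjusted p = 0.0475). In both, the 33.3 µM library was the highest of the series, and without it 0 members were called and Ndufb2 was at -0.02. Also, 0 were called higher without DMSO replicate 2 or replicate 8 and with the rank score, the library score as a covariate, library totals as the scaling, or DMSO replicate 1 added, while 1 was higher without DMSO replicate 4, 6, 7 or 9 and 5 without replicate 5. Library totals moved the median of all probes in this series from -0.04 to -0.18. At 33.3 µM other members were far below the controls, Uqcrc1 at 7.56 CPM against 128 to 251 and Uqcrfs1 at 9.22 CPM against 56.6 to 187, and they were not called. Assembly factors of the complexes rose in this series, 7 of 35 (Ndufaf2 by 1.28, Atpaf2 by 1.54, Ndufaf5 by 1.35 and Uqcc2 by 1.12 among them), as did the chaperones Hspa9 by 1.16 and Hspd1 by 1.24. Tf fell by 1.40 and the macrophage marker Cd68 rose by 2.85. At 33.3 µM the 10 hepatocyte markers summed to 17348 CPM and the 6 macrophage markers to 149.8 CPM, below and above all controls, and their part in the result was not tested.

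Over the 29 series, 3 members were called with 2 chemicals: Ndufa4 and Atp5a1 lower in both cases, and Ndufb2 lower with dithiopyr and higher with imazalil. Atp5a1 had a fitted change below 0 in 24 of 29 series, with a median of -0.26, and was lower at an unadjusted p under 0.05 in 13. Atp5b was below 0 in 27 series with a median of -0.17, and Ndufv1 in 27 with a median of -0.57. Ndufs3 was below 0 in 27 series and lower at an unadjusted p under 0.05 in 13. Other core subunits lay near 0, Ndufs1 with a median of 0.00, Sdhb of 0.04 and Sdha of -0.07. Since the series share their controls, these counts are not independent of each other. How many other probes reach such counts was not determined, so they are not shown to be particular to these subunits.

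Ndufa5, an accessory subunit of complex I, was the member most often far below the controls. Among the 50 members with a mean of at least 20 CPM in the controls, a value more than 4-fold below the control mean was found in 34 of 183 treated libraries, and Ndufa5 was such a member in all 34. It was joined by Cox7b in 11 of them and by Ndufb8 in 6, and all 6 libraries with low Ndufb8 also had low Cox7b. This limit and these genes were chosen after their values were seen, and counts of members and of all 5109 probes at this level are a description. Over the 183 libraries a median of 0.020% of those probes were more than 4-fold below their control mean. That median takes in all treated libraries, and single libraries among the 34 were far above it. With Bisphenol A at 11.1 µM the share was 7.34%, and with PFOA at 100 µM it was higher still. The low values in the 34 libraries are therefore not shown to be particular to these genes.

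The libraries concerned belonged to 20 of the 29 chemicals and to 1 reference chemical, and 7 of the 33 dose libraries were the highest dose of their series. With Bisphenol A, Ndufa5 had 122, 8.11, 119, 4.56, 1.66 and 19.5 CPM at 0.14, 0.4, 1.2, 3.7, 11.1 and 33.3 µM, against 87.3 to 181 CPM in the controls. Cox7b followed in the same order with 453, 80.4, 457, 33.3, 4.99 and 269 CPM, against 224 to 516, and Ndufb8 with 83.3, 25.0, 93.4, 12.1, 2.16 and 49.4 CPM, against 84.3 to 106. The libraries at 3.7 and 11.1 µM were more than 4-fold below the control mean for all 3 genes. At 0.4 µM this held for Ndufa5 and Cox7b, and at 33.3 µM for Ndufa5 alone of the 3. Ndufb8 was below all controls at 0.4 and 33.3 µM, but within 4-fold of its mean. The libraries at 0.14 and 1.2 µM were near the controls, and the order is not that of dose.

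At 11.1 µM Bisphenol A, 9 of the 50 members were more than 4-fold below, against 7.34% of all probes at this level, with Atp5c1 at 41.1 CPM (353.5 to 948 in the controls), Uqcrc1 at 13.5 CPM (128 to 251) and Atp5a1 at 122 CPM (676 to 880.5). Sdhd had 0 counts there and was at least 8.02-fold below its mean of 4.004 CPM, taking 3 counts as the limit. What sets these libraries apart was not tested. Summed hepatocyte markers in that library were at 34382 CPM, below the 36660 of the lowest control. The Bisphenol A trend gave 0 called members (0.0% of all probes in either direction) with a median of -0.45, against -0.02 over all probes. At an unadjusted p under 0.05 there were 15 members (21.7%, against 9.88% of all probes), and DESeq2 called 0. Without the 33.3 µM library 16 members were called lower, against 9.36% of all probes lower and 1.28% higher, and 1 model over all series called 14 lower, against 6.39% and 1.07%.

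The same genes were low in single libraries of other series. With cyclanilide Ndufa5 was at 3.86 CPM at 1.2 µM and 5.60 CPM at 33.3 µM, but at 65.0 CPM at 3.7 µM and 38.8 CPM at 100 µM. Bensulide at 3.7 µM had 4.10 CPM of Ndufa5, 61.3 of Cox7b and 16.9 of Ndufb8, and dichlobenil at 11.1 µM had 8.71, 95.6 and 20.5 CPM. With PFOA at 100 µM 10 of 50 members were more than 4-fold below, against 20% of all probes at this level, and they included Ndufa4 at 17.8 CPM, Ndufv2 at 23.4 CPM and Uqcrh at 35.1 CPM. Ndufa4, Ndufv2 and Uqcrh were among the members higher in DMSO replicate 1, at 621, 437 and 502 CPM, as was Ndufa5 at 717 CPM. Over all 183 treated libraries Ndufa5 had a median of 84.7 CPM and was below all controls in 94, Ndufb8 a median of 80.4 CPM and below in 112, and Cox7b a median of 399 CPM and below in 23.

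**Figure D4:**
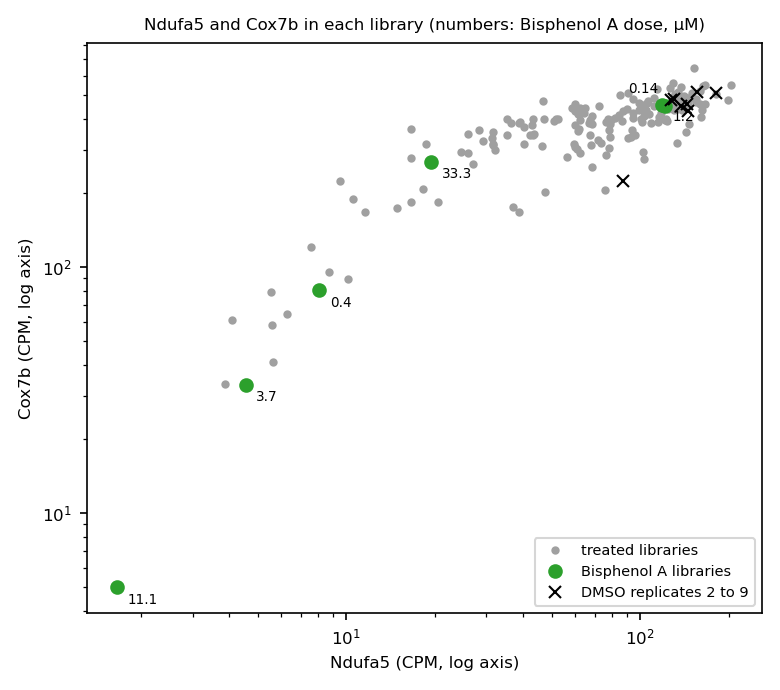
CPM of Ndufa5 (horizontal) against Cox7b (vertical), both on log axes, in each treated library, with the Bisphenol A libraries in colour and numbered by dose (µM) and DMSO replicates 2 to 9 as crosses. The Bisphenol A points run from the cluster of controls (0.14 and 1.2 µM) down to 1.66 and 4.99 CPM at 11.1 µM, and libraries of other chemicals lie along the same path.

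GW 4046 at 1.5 µM had 28.4 CPM of Ndufa5 in its single library, against 87.3 to 181 CPM in the controls. It was the 1 called member for GW 4046 (-2.15 ± 0.28, adjusted p = 0.0117, edgeR), against 0.606% of all probes lower and 0.344% higher, and it was lost without DMSO replicate 4 and with DMSO replicate 1 added, while 2 were lower without DMSO replicate 5. Cps1 and Ahsg fell alongside by 2.33 and 1.36. Of all probes 0.0452% were lower without DMSO replicate 4, 0% with replicate 1 added and 1.84% without replicate 5. As given above, low Ndufa5 occurred in 34 treated libraries of many chemicals. Each reference chemical had 1 library, so its SE and p rest on the spread among the controls, which that library is assumed to share, and they hold no replicate error of the treatment. For 7 of the 9 reference chemicals 0 members were called, against 0.215% of all probes higher and 0.28% lower. There DESeq2 called 0 to 4 members, and 0 to 17 had an unadjusted p under 0.05, against 4.17% to 20.3% of all probes. Both maxima were with Pregnenolone 16alpha carbinonitrile, where 24.6% of members and 20.3% of all probes had an unadjusted p under 0.05. The share of all probes that DESeq2 called there is not given here, so its 4 calls are not shown to be particular to the members.

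Sulforaphane at 10 µM, an isothiocyanate, gave 21 members higher and 2 lower, against 9.93% of all probes higher and 18.5% lower. Its 1 library, with no replicate, was the shallowest of all, with 582071 counts, and 33.3% of all tested probes and 8 of 69 members had 0 counts in it. At this depth 3 counts are 5.15 CPM, above all controls for Ndufa7 and Ndufa10l1. Those 2 probes totalled only 46 and 83 counts over the 8 controls, so their rises below rest on few counts. Higher members were found in every complex: 9 of 34 in complex I, 2 of 4 in complex II, 1 of 6 in complex III, 6 of 11 in complex IV and 3 of 14 in complex V. Ndufa7 had 13.7 CPM, against 0.348 to 1.44 CPM in the controls (4.44 ± 0.78, adjusted p = 0.00296, edgeR), and Ndufa10l1 had 29.2 CPM, against 0.626 to 3.48 CPM (4.33 ± 0.83, adjusted p = 0.00437). Atp5g1 was at 44.7 CPM, against 10.2 to 20.7 CPM (1.999 ± 0.377, adjusted p = 0.00411), and Atp5j2 and Sdhc were 1.58 and 1.38 higher. The smallest called rises were those of Ndufc1 (0.66), Sdhb (0.68) and Cox6b1 (0.72). Ndufs3 was lower at 30.9 CPM, against 95.9 to 127 CPM (-1.49 ± 0.25, adjusted p = 0.00216). Ndufc2 had 0 counts and was at least 2.63-fold lower than its mean of 13.5 CPM, taking 3 counts as the limit.

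The balance of these calls depended on the scaling. With TMM factors the members had a median of 0.53 (also 0.53 over the 64 with a value when those at 0 counts are put at that limit), and with library totals 0.11. The change of members with counts was about 0.41 lower under library totals, and the median of all probes moved from -1.07 to -1.48. With totals 6 members were called higher and 7 lower, against 6.07% of all probes higher and 27.2% lower. As a share of counts the members took 1.91%, within the range of the controls. Atp5a1 at -0.78 and Atp5b at -0.65 were then among those called lower, and Atp5g1, Atp5j2, Cox7c, Ndufa10l1, Ndufa7 and Sdhc were still called higher. Of the other cell types, Epcam (bile duct) was 2.94 higher and Col3a1 (stellate) 3.85 higher in this library, where 5 bile duct markers summed to 127 CPM and 5 stellate markers to 37.8 CPM. The 6 macrophage markers summed to 41.2 CPM, the 6 endothelial markers to 1.72 CPM and the 10 hepatocyte markers to 43543 CPM. Of the 10 hepatocyte markers 6 were called higher (Serpina1 by 1.23 and Fgb by 1.27 among them) and 2 lower, of 5 tested macrophage markers 1 higher and 2 lower, and of 4 tested endothelial markers 1 lower. Of 35 assembly factors 1 was called higher and 7 lower. The part of these in the result was not tested. With DMSO replicate 1 added 4 members were higher and 1 lower, and without DMSO replicate 5 these were 25 and 2. Of all probes 3.19% were higher and 8.79% lower with replicate 1 added, and 12.2% and 21.5% without replicate 5.

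**Figure D5:**
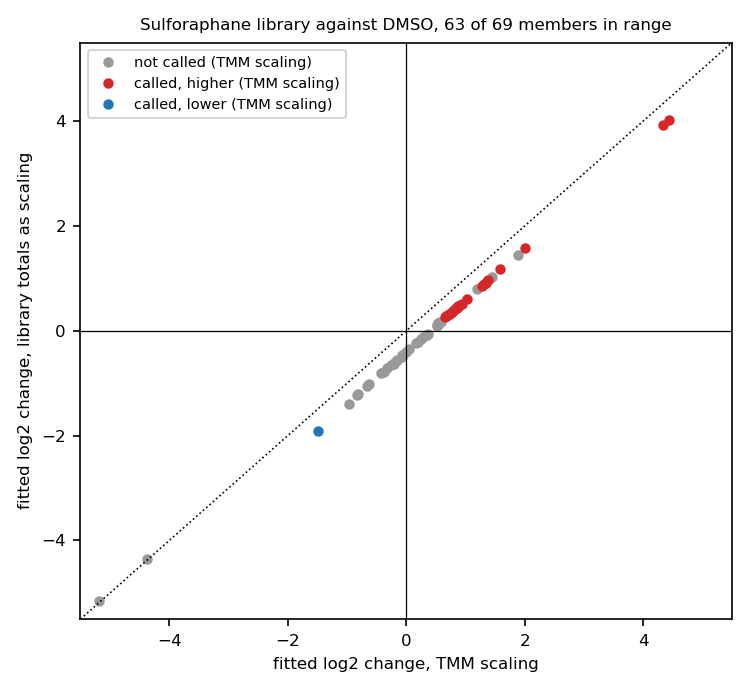
Fitted log2 change of members in the sulforaphane library against DMSO under TMM scaling (horizontal) and under library totals (vertical), for the 63 of 69 members within the axes, coloured by the call under TMM scaling. Members with counts lie about 0.41 below the dotted line of equal values, the 2 points on it at the lower left (Atp5s and a probe of Ndufa12) have 0 counts and no interpretable fold, and Ndufa7 and Ndufa10l1 are the pair at the upper right.

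PFOA and PFOS, a perfluorinated carboxylic and a perfluorinated sulfonic acid, were tested at the same doses on the same plate, as 1 pair. The slope difference, PFOA minus PFOS, was called for 2 of 69 members (2.90%), both higher with PFOA. Of all probes 2.46% were higher and 1.56% lower, so the members' share of higher calls is near that of all probes. Ndufb2 had 98.6, 100.0, 126, 138, 101 and 107 CPM with PFOA from 0.4 to 100 µM and 88.0, 95.9, 72.0, 98.0, 67.8 and 73.6 CPM with PFOS. PFOA was higher at each dose, and the difference at 33.3 µM was 0.84 ± 0.16 (adjusted p = 0.00557, edgeR). Ndufa11 had 34.6, 29.3, 32.0, 28.7, 28.9 and 27.8 CPM with PFOA and 30.7, 25.7, 29.6, 24.5, 22.2 and 16.7 CPM with PFOS (0.69 ± 0.17, adjusted p = 0.0264). The controls ran from 92.5 to 129 CPM for Ndufb2 and from 20.5 to 33.2 CPM for Ndufa11, so PFOS at 100 µM was below them for both. For the other 67 members the difference was not called, which does not show that the pair act alike. With library totals 1 member was higher and 1 lower, without the highest doses 1, and with DMSO replicate 1 added 0. Of all probes 1.42% were higher and 4.22% lower with library totals. These shares were 2.40% and 1.35% without the highest doses, and 0.805% and 0.253% with DMSO replicate 1 added. By edgeR's quasi-likelihood test the trend of PFOA alone gave 0 called members, against 2.58% of all probes higher and 1.17% lower, and that of PFOS alone 0, against 0.0814% and 0.0271%. At an unadjusted p under 0.05 there were 13 members with PFOA (18.8%, against 21.6% of all probes) and 7 with PFOS (10.1%, against 6.70%). DESeq2 called 1 higher and 2 lower with PFOA, against 5.10% and 2.75% of all probes, and 0 with PFOS. Without DMSO replicate 5 edgeR called 3 higher with PFOA, against 5.63% of all probes.

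Other genes of the pathway were taken from lists of related genes. Over the 29 trends the assembly factors, which build the complexes, were called higher in 11 of 1015 tests (1.08%) and lower in 0. Over all probes 0.95% of tests were higher and 0.713% lower, so this share of higher calls is near the background. Mitochondrial chaperones and proteases were higher in 6 of 261 (2.30%) and lower in 0, and regulators such as Nrf1, Gabpa and Tfam higher in 3 of 232 (1.29%) and lower in 1. Citrate cycle enzymes had 0 calls in 319 tests, and mitochondrial import proteins and carriers were lower in 2 of 261 (Timm44 with dithiopyr and triticonazole). The 3 tested subunits that the choice by symbol leaves out had 0 calls in 87 tests. Ndufaf4, an assembly factor of complex I, rose with dithiopyr by 1.78 and with triticonazole by 0.95. With dithiopyr 2 of 35 assembly factors were called higher, against 6.26% of all probes. With triticonazole it was 1 of 35, against 1.04%. Hepatocyte markers were lower in 21 of 290 tests (7.24%) and higher in 0, macrophage markers lower in 2 and higher in 2 of 145, and the bile duct marker Epcam lower in 1 of 29. Endothelial markers had 0 calls in 116 tests and the stellate marker Col3a1 0 in 29, and no muscle marker was tested.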

How the data were processed

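The authors deposited a matrix of raw counts per probe, made with Bowtie per the submitters' processing notes (version, probe sequences and genome build are not given in the sources used here). Columns were matched to samples by name, with 0 unmatched. Some row names carry a decimal number whose meaning is not stated, and it was dropped to read the symbol. Doses were taken as each sample's label lists them. The treatment protocol speaks of log2 steps, while the listed doses are about 3-fold apart, so values given for a dose hold only if the listed doses are right.

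Members and lists were chosen with earlier results of these data known. The 11055 probes tested reached 1.741 CPM, which is 10 counts in a library of median depth, in 6 or more libraries. edgeR 4.0.16 in R 4.3.3 was used with TMM factors and the quasi-likelihood test. Each chemical was fitted on log2(1 + dose) together with all 8 DMSO libraries, with plate as a factor. Each reference chemical was fitted as a factor with the same 8 and plate, and PFOA and PFOS in 1 fit with a slope each. With plate in the fit, the fitted change is set by the controls on the chemical's own plate, 2 on plate 1 and 3 each on plates 2 and 3. The other controls enter the scaling and the estimate of scatter. P-values were adjusted over all tested probes (Benjamini-Hochberg, 0.05). The fits of dithiopyr and sulforaphane were tested on simulated data, where most changes of 1 on the log2 scale were not called. A member that was not called may therefore have changed. With 1 library per dose, single values have no replicate error beyond that of the 8 controls, and totals of 582071 to 11249014 counts set the counting error.

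Named members were a panel of catalytic and tissue-specific subunits, up to 5 called members per direction and comparison, those called with the most chemicals and the most and least variable in DMSO. Ndufa5, Ndufb8, Atp5c1, Uqcrh and Uqcrb outside called results were chosen after their values were seen. Lists held other subunits, assembly factors, regulators, citrate cycle enzymes, chaperones and proteases, import proteins and carriers, and markers of hepatocytes, macrophages, endothelial, stellate, bile duct and muscle cells. Alternatives were DESeq2 1.42.0, its size factors, library totals, a dose score by rank, no plate term, no filter, 1 model over all series, a library score along the departure of DMSO replicate 5 as a covariate, DMSO replicate 1 added, and libraries left out.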

Additional observations from a re-analysis of the deposited data

Results flagged for a closer look

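In 45 groups of DMSO values examined, of which 43 were single members, 8 had 1 library far from the others. For independent groups chance gives about 1 in 20. These groups share their libraries, and most of the 8 concern DMSO replicate 5, so the count cannot be weighed against chance. The summed share of the members was 1.28% in DMSO replicate 1, apart from replicates 2 to 9. In DMSO replicate 5, Cox5a (104 CPM), Cox6c (335 CPM), Cox7a2 (368 CPM), Cox7b (224 CPM) and Sdhc (140.4 CPM) were apart on the low side and Cox6a1 (2159 CPM) on the high side. In DMSO replicate 2, Ndufb4 was apart at 310.4 CPM. The trends of PFOA and PFOS differed by edgeR's quasi-likelihood test for Ndufb2 by 0.84 and for Ndufa11 by 0.69. Both differences are on the log2 scale at 33.3 µM, higher with PFOA. These 2 are 2.90% of the tested members, near the 2.46% of all probes that were called higher.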

How the results depend on the processing

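Counts of called members moved with most settings, and where fewer samples or probes do not account for it the cause was not tested. Calls over all tested probes moved as well. For dithiopyr they were 1437, and 386 by rank, 313 with replicate 1 and 63 without the highest dose. For imazalil 1 model called 19.4% of all probes higher, and for triticonazole 20.6% lower. The counts below are therefore not shown to be particular to the members. Calls over the 29 trends count a member once for each chemical. There were 18 lower calls, and 51 with DESeq2, 66 with the library score as a covariate, 11 with library totals, 37 without the plate term, 67 in 1 model over all series, 0 with DMSO replicate 1, and 9 to 49 leaving out 1 control. Higher calls (2) came to 8 with DESeq2, 4 with its size factors, 0 by rank, 4 with the score, 0 with totals, 12 without plate, 33 in 1 model, 0 with replicate 1, 0 without the highest dose, and 0 to 13 leaving out 1 control. Chemicals with a call (4) came to 11, 12, 9, 10 and 0 with DESeq2, the score, no plate term, 1 model and replicate 1, and 3 to 10 leaving out 1 control. Reference chemicals with a call (2) came to 4, 6, 4 and 1 with DESeq2, the score, no filter and replicate 1, and 1 to 4 leaving out 1 control. For dithiopyr (10 lower) rank gave 0, totals 4, no plate term 5, 1 model 2, replicate 1 0, no highest dose 0, and single libraries left out 0 to 14. For cyproconazole (4 lower) DESeq2 gave 7, rank 2, the score 8, 1 model 9, replicate 1 0, no highest dose 1, and 1 control left out 3 to 10. For triticonazole (4 lower) DESeq2 gave 9, the score 10, totals 1, no plate term 16, 1 model 20, replicate 1 0, no highest dose 0, and 1 control left out 0 to 8. For imazalil (2 higher) DESeq2 gave 5, its size factors 4, rank 0, the score 0, totals 0, no filter 1, no plate term 5, 1 model 12, replicate 1 0, no highest dose 0, and 1 control left out 0 to 5. Ndufb2 with imazalil reversed to -0.0162 without the highest dose. For sulforaphane (21 higher, 2 lower) totals gave 6 higher and 7 lower, replicate 1 4 higher and 1 lower, and DESeq2 1 lower. For GW 4046 (1 lower) DESeq2 gave 2, the score 8, no plate term 2, replicate 1 0, and 1 control left out 0 to 2. For PFOA minus PFOS (2 higher) totals gave 1, replicate 1 0 and no highest dose 1. No paired analysis was possible because each treated group is 1 library and the labels number the DMSO libraries alone, so compared groups share fewer than 2 numbers.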
